A study of Mus musculus with 12 samples.

Results

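The 10 genes described here are the Notch ligands Dll1, Dll3 and Jag1, the receptors Notch1, Notch2 and Notch3, the DNA-binding factor Rbpj and the effectors Hes1, Hes5 and Hey1. They were taken by name, and all 10 were found among the 20540 genes of the deposited expression table. They were measured in oligodendrocyte progenitor cells (OPCs), the cells that divide and mature into the myelin-forming oligodendrocytes, from the brain of C57BL/6 mice at postnatal day 6-7. Every culture was kept proliferating in a medium that the labels call SATO+PDGFRA and was transfected with a biotin-tagged miRNA mimic. The mimic was either a control or miR-27a, so the control cells carried a tagged mimic too. RNA was sequenced from the transfected cells (here whole-cell RNA) and from the material captured in a pulldown assay. This gave 4 groups of 3 libraries: whole-cell control, whole-cell miR-27a, pulldown control and pulldown miR-27a. Nothing in the labels says whether the 3 replicates came from separate animals or cultures, so the p-values measure only the spread between these libraries, which may be technical. A pulldown level is the share of a gene in captured RNA, and the control pulldown is the background for the miR-27a pulldown.

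Notch signalling passes between touching cells. A ligand on one cell binds a Notch receptor on its neighbour, the receptor is cut by an ADAM protease and then by gamma-secretase, and the freed intracellular part joins RBPJ on DNA to switch on HES and HEY genes. In the oligodendrocyte lineage, Notch activity is known for holding progenitors in an immature state, with Jag1 and Hes5 among the genes studied for that role. Dll3 differs from the other ligands in that it mostly acts inside the cell that makes it and does not activate receptors on neighbours.

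The libraries held between 15548418 and 24972188 reads assigned to genes, and 3 reads corresponded to between 0.116 and 0.2 CPM (read counts scaled to a common library size). On principal components, the kind of RNA was the main axis and the mimic the next, while pulldown miR-27a replicate 2 stood apart from its group on a further one. All 8 OPC markers (Pdgfra, Cspg4, Olig1, Olig2, Sox10, Gpr17, Ptprz1 and Lhfpl3) averaged at least 1 CPM over the libraries, with a summed level of 2375 to 2430 CPM in whole-cell control RNA. Markers of other cells were present as well: 8 astrocyte markers summed to 8193 to 8216 CPM and 7 markers of myelinating oligodendrocytes to 11171 to 11663 CPM in the same libraries, against 12.5 to 14.2 CPM for 6 microglial markers. In those libraries 4 neural progenitor markers summed to 1716 to 1936 CPM and 7 neuronal markers to 156 to 177 CPM. The 8 mural and smooth muscle markers summed to 58.7 to 68.2 CPM and 6 endothelial markers to 7.14 to 7.34 CPM. A level in these bulk samples does not tell fewer cells of a type from less RNA per cell.

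The sequence of the transfected miRNA and the places where it could pair with the Notch genes are shown first, since they mark which members could be direct targets by sequence. The mature mouse miR-27a-3p (RefSeq, GRCm38.p6, chr8:84208727-84208747, plus strand) has its seed, bases 2 to 8, in capitals. Seed matches were searched in each gene's longest 3′ UTR as annotated by GENCODE M21 on GRCm38. Of the 10 members, Notch2 and Hey1 held any 8-base or 7-base match, and no match was found in the longest annotated 3′ UTR of the other 8. The 8-base match was present in 6.687% of 15568 genes with a 3′ UTR, and a match of either length in 30.01%. The 3 sites are printed 5′ to 3′ on the strand of the gene with the match in capitals.
miR-27a-3p: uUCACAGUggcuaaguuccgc
Notch2 8-base match: attgactgccACTGTGAAgcacatttat
Notch2 7-base match: aggcttaggtACTGTGAtattcctctc
Hey1 7-base match: agcttggtgcCTGTGAAacacaacccg
Both Notch2 sites lie in the last exon, exon 34 of 34, of the gene on the plus strand, with windows at chr3:98148408-98148435 and chr3:98148286-98148312. The Hey1 site lies in exon 5 of 5 on the minus strand, with its window at chr3:8663624-8663650. A match is a description of letters, not a measured binding site.

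The promoter of Hes5 is shown because Hes5 was the effector whose pulldown level fell, and because its promoter carries the letters that RBPJ binds. RefSeq promoters (GRCm38.p6, 250 bases before to 50 after the start site) were at hand for 8 of the 10 members, 10 promoters in all. Each was searched on both strands for GTGGGAA and for the shorter TGGGAA, which lies within it. Of all 32851 promoters, 6.383% held GTGGGAA and 0.256% held at least 2 copies. The Hes5 promoter, chr4:154960673-154960972 on the plus strand, held 2 copies, in capitals, starting 226 bases before the start site on the minus strand and 83 bases before it on the plus strand.
Hes5 promoter: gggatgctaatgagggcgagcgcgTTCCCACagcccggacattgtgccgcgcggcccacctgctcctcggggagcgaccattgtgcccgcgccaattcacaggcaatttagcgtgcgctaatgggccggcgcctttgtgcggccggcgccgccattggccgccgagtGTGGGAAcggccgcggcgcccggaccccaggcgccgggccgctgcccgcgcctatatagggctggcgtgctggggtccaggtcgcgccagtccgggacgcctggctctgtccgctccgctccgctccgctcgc
Of the 8 members searched, none but Hes5 held GTGGGAA, and the promoters of the other effectors, Hes1 and Hey1, were not searched. The shorter TGGGAA, present in 25.561% of all promoters, was also found in both promoters of Rbpj, the gene for the factor itself.

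Levels of the 10 genes were first compared with each other per kilobase of the longest coding transcript, so that long and short genes stand on one scale. In whole-cell control RNA the order ran from Hes5 to Notch3. Hes5, a repressor of the bHLH class and the classic Notch target in neural cells, was highest at 54.6 ± 5.44 CPM per kb (SD, n = 3). Hey1, a related repressor, followed at 17.3 ± 0.46 CPM per kb, and did not overlap with Hes5. The ligand Dll1 (13.4 ± 1.53 CPM per kb) and Rbpj (11.96 ± 0.86) overlapped with each other. A lower tier held Dll3 (4.81 ± 0.47), Jag1 (4.02 ± 0.30), Notch1 (3.99 ± 0.26) and Hes1 (3.63 ± 0.14), in which Dll3 overlapped with Jag1 and Jag1 with Notch1. Notch2 at 1.22 ± 0.15 and Notch3 at 0.92 ± 0.08 CPM per kb closed the order. The order was the same per kilobase of all annotated exons.

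The order shifted in the captured RNA. In the control pulldown Hes5 stood at 128 ± 4.37 CPM per kb, followed by Dll1 at 33.4 ± 1.46. Dll3 had moved up beside Hey1, at 23.2 ± 1.31 against 24.8 ± 2.16 CPM per kb, and their libraries overlapped. In the miR-27a pulldown Dll3 (32.1 ± 2.61) overlapped with Dll1 (37.7 ± 4.29) and lay above Hey1 (22.7 ± 1.25). Notch2 and Notch3, the lowest members in all 4 groups, overlapped there at 2.77 ± 0.32 and 2.66 ± 0.63 CPM per kb. The middle of the order in pulldown RNA depended on the length used: per kilobase of all annotated exons, Rbpj ranked 8 in place of 6 in both pulldown groups.

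**Figure D1:**
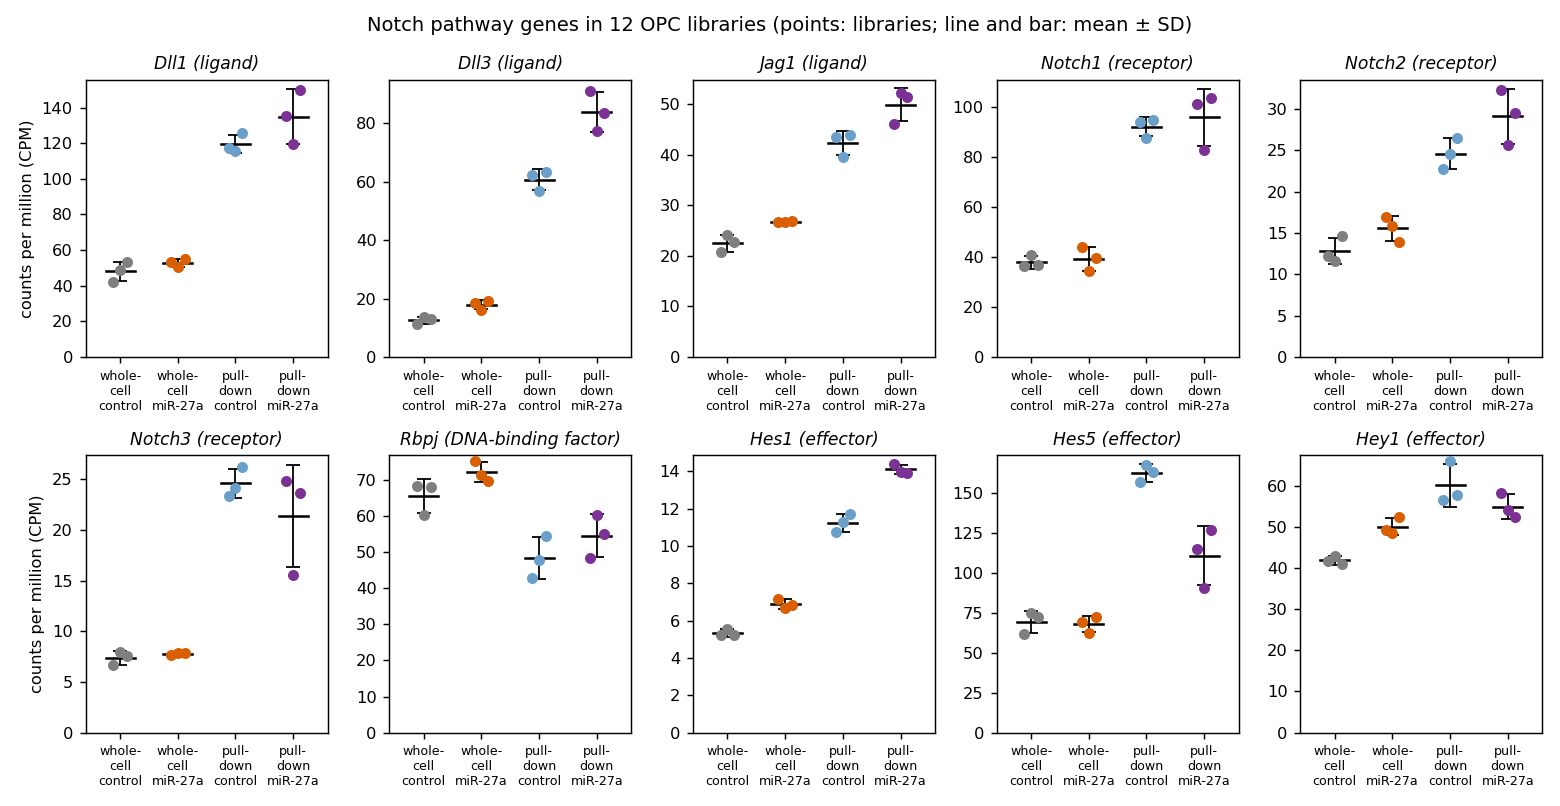
Level of each of the 10 Notch genes in CPM (vertical axes) in the 4 groups of 3 libraries; points are single libraries, and lines and bars are group means ± SD. Pulldown libraries lie above whole-cell libraries for every gene but Rbpj under the control mimic, and Hes5 falls from 157 to 168 CPM in the control pulldown to 90.3 to 127 CPM in the miR-27a pulldown.

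In whole-cell RNA, 5 of the 10 genes were higher under miR-27a than under the control mimic and none was lower. The 5 were the ligands Dll3 and Jag1, the receptor Notch2 and the effectors Hes1 and Hey1, with log2 changes between 0.24 and 0.47. Across all 13393 genes tested, 24.9% were called, 13.0% as higher. The median log2 change was 0.19 over the 10 members and 0.01 over all genes. No member was lower at an unadjusted p under 0.05 in limma either, and none by limma voom. Changes are differences of log2(CPM + 1), which understate the change of low genes, and p-values were adjusted over all genes tested with a threshold of 0.05. The groups did not overlap for Dll3, Jag1, Rbpj, Hes1 and Hey1, that is for 5 of the 10, where 38.8% of all genes tested did not overlap. Cell type markers moved in the same libraries: 4 of 8 OPC markers were higher and 1 lower, 6 of 8 astrocyte markers were lower, and of 7 markers of myelinating oligodendrocytes 1 was higher and 3 lower. OPC markers summed to 2437 to 2443 CPM and myelinating markers to 10655 to 11037 CPM under miR-27a. Their part in the members' changes was not tested.

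Among the 3 member ligands, Dll3 had the largest change. Dll3 (chr7:28293553-28302238, minus strand) measured 11.2, 13.5 and 13.0 CPM in the whole-cell control libraries and 18.4, 16.2 and 19.1 CPM under miR-27a. Every miR-27a library was above every control library, a log2 change of 0.47 ± 0.09 (SE; adjusted p = 0.000385) that stayed past the threshold under every alternative run. Jag1 (chr2:137081456-137116644, minus strand), a ligand that activates receptors on neighbouring cells, measured 20.8, 24.1 and 22.7 CPM in control and 26.7, 26.6 and 26.9 CPM in miR-27a libraries. The miR-27a libraries of Jag1 lay within a narrow band above all controls, with a log2 change of 0.24 ± 0.07 (adjusted p = 0.0138). With all 12 libraries in the fit the adjusted p of Jag1 was 0.057, and it was 0.0605 without whole-cell control replicate 1 and 0.0504 without whole-cell miR-27a replicate 3. Dll1 (chr17:15367354-15376872, minus strand), the ligand best known from neural progenitors, measured 42.3, 48.8 and 53.1 CPM against 53.1, 50.5 and 54.9 CPM. Its groups overlapped, and its log2 change of 0.14 (95% interval 0.00 to 0.27, adjusted p = 0.126) passed the threshold only without whole-cell control replicate 3 among the alternatives run (adjusted p = 0.029).

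Of the receptors, Notch2 (chr3:98013527-98150361, plus strand), the member with the 8-base seed match, was called higher. It measured 12.2, 11.7 and 14.6 CPM in control and 17.0, 15.8 and 13.9 CPM in miR-27a libraries. The groups overlapped, since miR-27a replicate 3 lay below control replicate 3, and the log2 change was 0.26 ± 0.10 (adjusted p = 0.0457). The call for Notch2 was lost with no filter on low values (adjusted p = 0.127), with array weights (0.0772), with all 12 libraries in the fit (0.134) and with some libraries left out. The adjusted p was 0.102 and 0.143 without whole-cell control replicate 1 and 2, and 0.212 and 0.116 without whole-cell miR-27a replicate 1 and 2. Notch1 (chr2:26457903-26516663, minus strand), the receptor most studied in development, had a log2 change of 0.05 with an interval of −0.10 to 0.20. Notch3 (chr17:32120820-32166852, minus strand), which is known above all from vascular mural cells, had one of 0.08 with an interval of −0.14 to 0.29. Neither passed the threshold (adjusted p = 0.679 and 0.645). Of 8 mural and smooth muscle markers, 4 averaged below 1 CPM over the libraries. Of the 4 tested in whole-cell RNA, 2 were lower under miR-27a and none higher, with a median log2 change of −0.27. The most abundant, Acta2, averaged 46.0 CPM in control and 15.5 CPM in miR-27a whole-cell RNA. Pdgfrb averaged 9.66 and 7.63 CPM, Vtn 2.45 and 1.93 CPM, and Rgs5 5.03 and 5.09 CPM.

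Rbpj (chr5:53466152-53657362, plus strand), the DNA-binding partner of the cut receptor, measured 68.5, 60.2 and 68.1 CPM in control and 75.2, 71.3 and 69.8 CPM in miR-27a libraries. The groups did not overlap, but the log2 change of 0.14 ± 0.05 missed the threshold (adjusted p = 0.0637). It passed without whole-cell control replicate 1 (adjusted p = 0.0207), with scaling to library totals (0.0467) and with array weights (0.0388).

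The 3 effectors gave different readings in whole-cell RNA. Hey1 (chr3:8663359-8667256, minus strand) measured 41.6, 43.0 and 40.8 CPM in control and 49.2, 48.5 and 52.4 CPM in miR-27a libraries. All 3 miR-27a libraries lay above the controls, a log2 change of 0.25 ± 0.05 (adjusted p = 0.00112) that passed under every alternative run. Hes1 (chr16:30064384-30067796, plus strand), a repressor that works beside Hes5, was a low gene at 5.23, 5.56 and 5.21 CPM against 7.17, 6.69 and 6.81 CPM. Its groups did not overlap and its log2 change was 0.32 ± 0.11 (adjusted p = 0.0326). The Hes1 call was not kept with no filter on low values (adjusted p = 0.0893) or with most sets of fewer libraries: without whole-cell control replicate 1 or 3 the adjusted p was 0.068 and 0.0842, and without whole-cell miR-27a replicate 1, 2 or 3 it was 0.114, 0.0561 and 0.0775. Hes5 (chr4:154960923-154962371, plus strand), the most abundant effector, measured 61.6, 74.6 and 72.1 CPM in control and 69.0, 62.6 and 72.2 CPM in miR-27a libraries. The Hes5 groups overlapped, with a log2 change of −0.03 (interval −0.16 to 0.10, adjusted p = 0.781).

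The direction of the 2 genes with seed matches was set beside that of other genes with such matches. Among 839 tested genes with an 8-base match, 29.8% were called lower and 8.22% higher in whole-cell RNA, with a median log2 change of −0.08. The change of Notch2 lay above 94.8% of them. Among 2902 genes with 7-base matches only, 15.82% were called lower and 11.89% higher, and the change of Hey1 lay above 91.4% of them. Genes without a match numbered 7662, of which 9.29% were lower and 14.79% higher. Neither member with a seed match was called lower in whole-cell RNA, and direct pairing with the mimic was not tested.

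**Figure D2:**
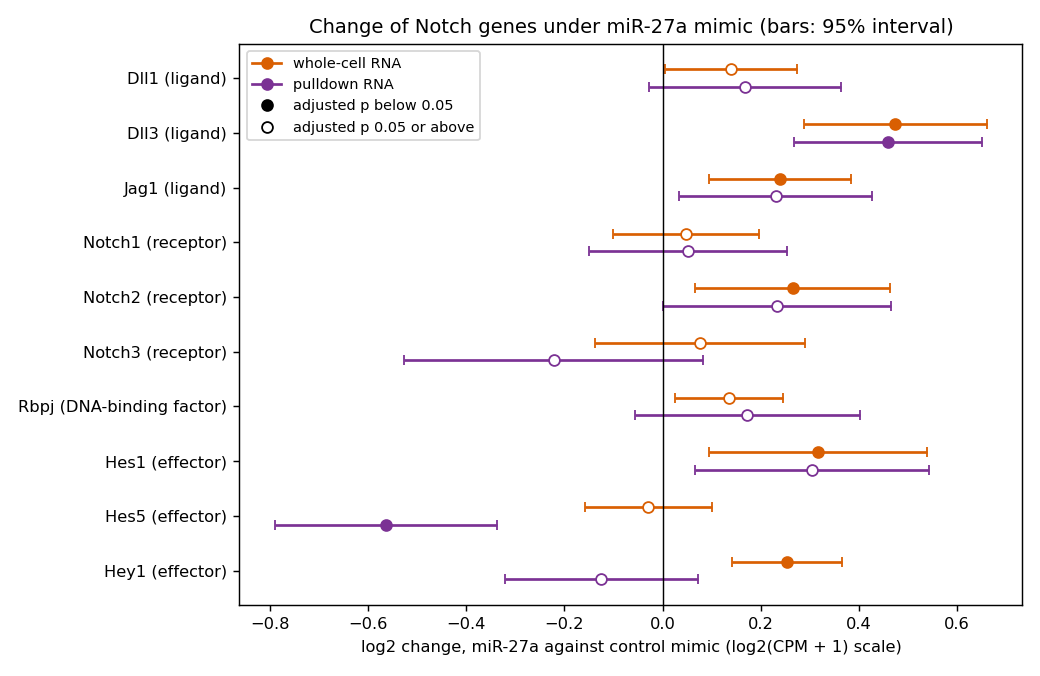
Log2 change of each Notch gene, miR-27a against control mimic, on the log2(CPM + 1) scale (horizontal axis), in whole-cell and pulldown RNA; points are limma estimates, bars are 95% intervals and filled points have an adjusted p below 0.05. Dll3 lies near 0.47 in both kinds of RNA, while Hes5 lies at −0.03 in whole-cell and −0.56 in pulldown RNA.

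In pulldown RNA the same contrast called 2 of the 10 genes: Dll3 was higher and Hes5 lower under miR-27a. Of 13586 genes tested there, 13.1% were called, 6.05% as higher and 7.06% as lower. The median log2 change was 0.17 over the members and 0.00 over all genes. With the replicate number as a block, 2743 genes were called in place of 1781, and the same 2 members passed. The groups did not overlap for Dll3, Jag1, Hes1 and Hes5, against 30.9% of all genes.

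Hes5 showed the largest change of any member in the pulldown contrast. It measured 157, 168 and 163 CPM in the control pulldown and 115, 90.3 and 127 CPM in the miR-27a pulldown. All miR-27a libraries lay below all controls, and the lowest value came from replicate 2, the library that stood apart. The log2 change was −0.56 ± 0.11 (interval −0.79 to −0.34, adjusted p = 0.00223), and under all alternatives run the adjusted p lay between 1.5e-05 and 0.0212. Without replicate 2 the log2 change was −0.42 ± 0.08. Hes5 holds no miR-27a seed match in its annotated 3′ UTR of 696 bases. Markers of other cells moved in the same libraries. Astrocyte markers summed to 5341 to 5479 CPM in the control pulldown and 3848 to 4273 CPM under miR-27a, with 6 of 8 called lower and none higher. Markers of myelinating oligodendrocytes summed to 5121 to 5722 and 3763 to 4798 CPM, with 5 of 7 lower, while OPC markers summed to 3930 to 4011 and 4537 to 4686 CPM, with 3 of 8 higher, and Olig2 (adjusted p = 0.0358) and Ptprz1 (0.0308) higher as well with the replicate block. No marker of these 3 lists was at 0 in all libraries. In whole-cell RNA 6 of 8 astrocyte markers were also lower, with sums of 8193 to 8216 CPM in control and 6946 to 7004 CPM under miR-27a. The median log2 change of the astrocyte markers was −0.19 in whole-cell and −0.33 in pulldown RNA. In the pulldown contrast, 1 of 4 neural progenitor markers was higher and none lower (median log2 change −0.0009). Of 5 neuronal markers tested there, 1 was higher and 1 lower, and of 5 microglial markers none was called. Of 5 mural and smooth muscle markers 2 were lower, and of 2 endothelial markers 1 was higher. The part of the cell type markers in the fall of Hes5 was not tested.

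Dll3 rose in captured RNA by about as much as in whole-cell RNA. It measured 62.3, 56.9 and 63.2 CPM in the control pulldown and 91.0, 77.4 and 83.6 CPM in the miR-27a pulldown. Every miR-27a library was above every control, a log2 change of 0.46 ± 0.09 (adjusted p = 0.00302) that passed under every alternative run. Jag1 measured 43.5, 39.7 and 44.0 CPM against 46.2, 52.3 and 51.4 CPM, without overlap, for a log2 change of 0.23 ± 0.09. Hes1 measured 10.7, 11.3 and 11.7 CPM against 14.4, 14.0 and 13.9 CPM, also without overlap, for a log2 change of 0.30 ± 0.11. Neither Jag1 nor Hes1 passed the threshold in pulldown RNA (adjusted p = 0.121 and 0.0908), though both did with all 12 libraries in the fit (0.0399 and 0.0271).

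The other 6 members were not called in the pulldown contrast, and the groups of each overlapped. Dll1 had a log2 change of 0.17 ± 0.09 and Notch2 one of 0.23 ± 0.11. Both passed without pulldown miR-27a replicate 2, Dll1 at 0.25 (adjusted p = 0.0121) and Notch2 at 0.32 (adjusted p = 0.0243). Notch1 stood at 0.05 (interval −0.15 to 0.25) and Rbpj at 0.17 (−0.06 to 0.40). Notch3 measured 23.4, 24.2 and 26.2 CPM in control and 24.8, 15.6 and 23.7 CPM in miR-27a libraries. Its lowest value was again that of replicate 2, and its log2 change was −0.22 (interval −0.53 to 0.08, adjusted p = 0.355), which was −0.02 without that library. Hey1 measured 56.5, 66.0 and 57.6 CPM against 58.3, 54.0 and 52.5 CPM, a log2 change of −0.12 (interval −0.32 to 0.07, adjusted p = 0.427). Among 856 genes with an 8-base seed match, the median log2 change in pulldown RNA was −0.08, and the change of Notch2 lay above 89.4% of them. The change of Hey1 lay above 30.8% of 2932 genes with 7-base matches only.

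Whether the mimic effect differed between the 2 kinds of RNA was tested in one fit of all 12 libraries. None of the 10 members passed in limma, while 1.07% of 13875 genes did, 0.735% as lower. At an unadjusted p under 0.05 there were 2 members, Hes5 and Hey1, and limma voom called 0 of 10. The pulldown effect minus the whole-cell effect was −0.53 ± 0.14 for Hes5 (adjusted p = 0.0739) and −0.38 ± 0.10 for Hey1 (adjusted p = 0.0832). Neither difference passed in the main fit, and both passed under some of the alternatives run, array weights among them. Without pulldown miR-27a replicate 1, 2 or 3 the Hes5 difference was −0.57, −0.40 and −0.64 with adjusted p = 0.0327, 0.0196 and 0.0297. For Hey1, leaving out pulldown miR-27a replicate 1 or 2 gave −0.42 and −0.37 with adjusted p = 0.0323 and 0.0368. Over all alternatives run, the adjusted p ranged from 0.0129 to 0.227 for Hes5 and from 0.000361 to 0.264 for Hey1. Notch3 had a difference of −0.30 ± 0.19 (adjusted p = 0.532), and the other 7 members lay between −0.03 and 0.04.

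Under the control mimic, 9 of the 10 genes were higher in pulldown than in whole-cell RNA, and Rbpj was lower. This comparison called 62.0% of 13875 genes, 31.7% as higher and 30.3% as lower. Scaled to library totals it called 5176 genes higher and 3401 lower, in place of 4392 and 4209. The median log2 difference over the members was 1.08, and 0.02 over all genes. Dll3 had the largest difference of the 10, a fold of 4.55 on the log2(CPM + 1) scale (log2 2.19 ± 0.09, adjusted p = 1.8e-12), from 12.6 ± 1.22 to 60.8 ± 3.44 CPM. Of all genes tested, 99.99% had a smaller difference than Dll3. Notch3 (log2 1.61), Dll1 (1.30), Notch1 (1.26) and Hes5 (1.22) followed, then Hes1 (0.95), Notch2 (0.89), Jag1 (0.88) and Hey1 (0.51). Rbpj went the other way, from 65.6 ± 4.69 to 48.3 ± 5.85 CPM (log2 −0.44 ± 0.09, adjusted p = 0.000352). The groups did not overlap for any of the 10 members, nor for 67.5% of all genes tested. In this comparison 6 of 8 OPC markers were higher and none lower (median log2 difference 0.85), 7 of 7 markers of myelinating oligodendrocytes were lower (−0.96), and 6 of 8 astrocyte markers were lower and 1 higher (−0.64). Their part in the members' differences was not tested.

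Under the miR-27a mimic, 8 members were higher in the pulldown, Rbpj was lower and Hey1 was not called. Here 60.2% of all genes were called, 29.3% as higher, and the medians were 0.91 over the members and −0.01 over all genes. With scaling to library totals, 5009 genes were higher and 3312 lower, in place of 4064 and 4286, and Hey1 then passed at 0.23 (adjusted p = 0.0106) in place of 0.13 ± 0.07 (adjusted p = 0.127). The direction of the other 9 members was the same under each scaling. Dll3 again differed most at 2.17, and Dll1, Notch1, Hes1, Notch2 and Jag1 stood within 0.04 of their values under the control mimic. Hes5 stood at 0.69 ± 0.10 in place of 1.22, Notch3 at 1.32 in place of 1.61 and Rbpj at −0.40. The groups of all 10 members, Hey1 included, did not overlap, nor did those of 63.9% of all genes. The markers again moved too, with 6 of 8 OPC markers higher (median 0.85), 7 of 7 myelinating markers lower (−1.40) and 6 of 8 astrocyte markers lower (−0.90).

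The members that were most shifted towards the pulldown were also rich in G and C. The GC content of the longest coding transcript was 62.1% for Hes5, 61.0% for Dll3, 59.6% for Notch3, 57.1% for Notch1, 54.9% for Dll1 and 53.6% for Notch2. Hey1 had 52.6%, Hes1 50.7% and Jag1 48.8%, and Rbpj, the one member lower in the pulldown, had 43.7%. The median over all genes was 50.0%. Across the 10 members, GC content and the pulldown difference under the control mimic had a Spearman's rho of 0.806, and across 11758 genes with an annotated length and GC content rho was 0.311 (Pearson's r = 0.318). Under the miR-27a mimic rho was 0.503 across the members and 0.191 across all genes. These correlations are across genes that share libraries, and genes are not independent replicates. In genes below 45% GC the median log2 difference was −0.24 and 17.9% were higher, and in genes at 60% or more the median was 0.29 and 47.7% were higher. The difference of the mimic effect is the miR-27a value of this comparison minus the control value, so it is not a separate measure. Its rho with GC content was −0.331 across all genes and −0.527 across the members. For the mimic change in whole-cell RNA rho was 0.188 across 11425 genes and −0.285 across the members. In pulldown RNA it was −0.141 across 11561 genes and −0.358 across the members. The part of GC content in the values of Hes5, Dll3 and Rbpj was not tested.

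**Figure D3:**
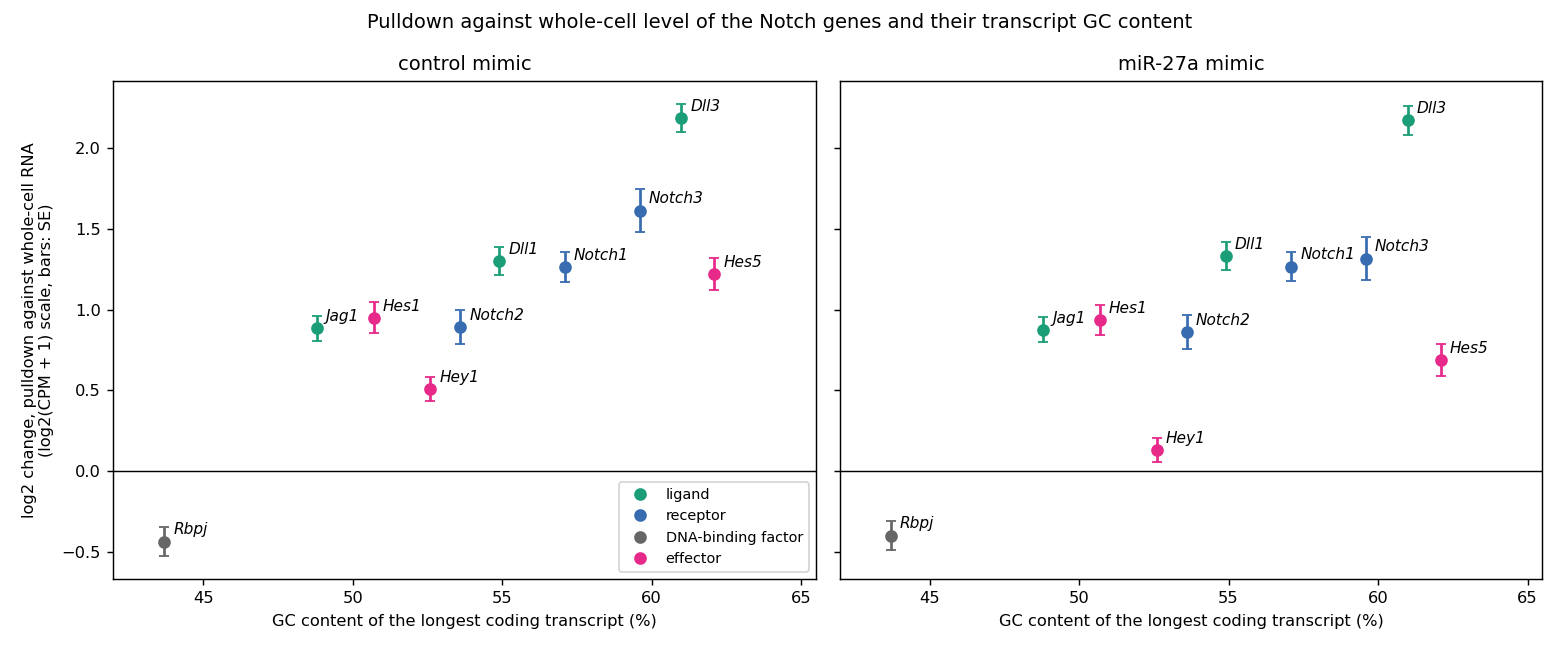
Log2 difference between pulldown and whole-cell RNA (vertical axis, log2(CPM + 1) scale, bars are SE) against the GC percent of the longest coding transcript (horizontal axis) for the 10 Notch genes under the control mimic (left) and the miR-27a mimic (right), coloured by role. Dll3 at 61.0% GC lies highest in both panels, at 2.19 and 2.17, Rbpj at 43.7% GC lies lowest, and Hes5 stands at 1.22 on the left and 0.69 on the right.

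The rest of the pathway was read from a list of 67 other genes in 10 roles. In whole-cell RNA 56 of them were tested, of which 12 were higher and 5 lower under miR-27a, with a median log2 change of 0.02. In pulldown RNA 55 were tested, of which 4 were higher and 2 lower, with a median of 0.03. The background of called genes is that given above for each contrast.

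Among other ligands, 2 of 4 tested rose in whole-cell RNA. Jag2, a close relative of Jag1, rose from 3.10 ± 0.19 to 4.81 ± 0.18 CPM (log2 change 0.50, adjusted p = 0.00331). Cntn1, an adhesion protein described as a Notch ligand in oligodendrocytes, rose from 526 ± 9.02 to 695 ± 1.42 CPM (0.40, adjusted p = 1.19e-09). Cntn1 rose further in the pulldown, from 1023 ± 32.8 to 1816 ± 96.5 CPM (0.83, adjusted p = 2.03e-05). It was the one gene of the 67 whose mimic effect differed between pulldown and whole-cell RNA (0.42, adjusted p = 0.013), a call that was lost without any one of 5 libraries (adjusted p = 0.0547 and 0.0506 without whole-cell control replicate 1 and 3, 0.055 and 0.0596 without whole-cell miR-27a replicate 1 and 3, and 0.063 without pulldown control replicate 3). The call for this difference was also lost with no filter on low values (adjusted p = 0.0521). The rises of Cntn1 within each kind of RNA, and that of Jag2 in whole-cell RNA, passed under every alternative run.

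The enzymes that prepare ligands and receptors moved in both directions. Of 4 ligand ubiquitin ligases, which make ligands competent to signal, 3 were higher in whole-cell RNA: Neurl1b (0.50, adjusted p = 0.000249), Mib2 (0.19, 0.0251) and Mib1 (0.11, 0.0328). In the pulldown Neurl1b (0.75, adjusted p = 0.00173) and Neurl1a (0.67, 0.0186) were higher. Of 6 genes for receptor glycosylation and processing, Pofut1 (0.30, adjusted p = 0.000432) and Lfng (0.22, 0.002) were higher and Poglut1 was lower (−0.24, 0.000192) in whole-cell RNA, and none was called in the pulldown. With the replicate block, Poglut1 passed in the pulldown as well (−0.22, adjusted p = 0.0299 in place of 0.0895). None of the 9 ADAM and gamma-secretase genes was called in whole-cell RNA, by limma, at an unadjusted p under 0.05 or by limma voom. One of them, the protease gene Adam10, was higher in the pulldown contrast (0.26, adjusted p = 0.0332). All 9 were higher in pulldown than in whole-cell RNA under both mimics. Of the whole list of 56 tested genes, 35 were higher and 9 lower under the control mimic and 32 and 6 under miR-27a, beside the shares of all genes given above. Genes for receptor inhibition and turnover had 3 of 12 higher and 6 lower under the control mimic, and 2 higher and 3 lower under miR-27a. The whole-cell calls for Pofut1, Poglut1, Neurl1b and Lfng held whichever library was left out, and that of Lfng was lost with all 12 libraries in the fit (adjusted p = 0.115), as were those of Mib1 (0.441) and Mib2 (0.15). The Mib1 call was lost without any library but whole-cell control replicate 1 (adjusted p up to 0.128), and the Mib2 call without control replicate 1 or any whole-cell miR-27a library (up to 0.139). The Neurl1a call was lost without pulldown control replicate 1 or 3 or pulldown miR-27a replicate 3 (up to 0.0979), and the Adam10 call without any pulldown control library or pulldown miR-27a replicate 3 (up to 0.156). With no filter on low values, the Mib2 call in whole-cell RNA (adjusted p = 0.0705) and the Neurl1a call in the pulldown (0.0769) were lost as well.

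Of the nuclear genes, the coactivator Kat2b fell in both contrasts, by 0.41 in whole-cell RNA (adjusted p = 4.44e-07) and by 0.55 in the pulldown (adjusted p = 0.00116), the sole activator of 7 to be called. Among 9 corepressor genes, Ncor1 was lower (−0.23, adjusted p = 3.64e-05) and Tle1 (0.23, 0.00903) and Tle3 (0.27, 0.035) were higher in whole-cell RNA. Of 12 genes for receptor inhibition and turnover, Dtx1 (0.34, adjusted p = 0.00127) and Cdk8 (0.18, 0.0271) were higher and the ubiquitin ligase gene Itch was lower (−0.13, 0.0235) in whole-cell RNA. Fbxw7, whose product marks the Notch intracellular part for breakdown, was lower in the pulldown (−0.37, adjusted p = 0.0157). Of the other HES and HEY factors, Hey2 fell from 14.5 ± 0.20 to 10.4 ± 0.39 CPM (−0.44, adjusted p = 0.000483) and Hes6 rose from 45.1 ± 2.85 to 54.6 ± 3.68 CPM (0.27, adjusted p = 0.00151) in whole-cell RNA. Hey2 thus fell in the whole-cell libraries in which Hey1 rose. Whichever library was left out, the calls for Kat2b, Ncor1, Tle1, Dtx1, Hey2 and Hes6 in whole-cell RNA and for Kat2b in the pulldown held. With all 12 libraries in the fit, the whole-cell calls for Ncor1 (adjusted p = 0.0821), Hes6 (0.0509), Tle3 (0.0745), Cdk8 (0.107) and Itch (0.301) were lost. With the replicate block, Hey2 (−0.32, adjusted p = 0.0388) was lower and the corepressor gene Kdm5a (0.20, 0.0355) and the inhibitor gene Nrarp (0.29, 0.0213) were higher in the pulldown, where none of the 3 was called without it. In whole-cell RNA, Cdk8 missed the threshold when control replicate 3 or miR-27a replicate 1 or 3 was left out (adjusted p up to 0.119). The Itch call was lost without control replicate 1 or 3 or miR-27a replicate 1 or 3 (up to 0.109), and the Tle3 call without any library but control replicate 2 (up to 0.0925). In the pulldown, the Fbxw7 call was lost without control replicate 2 or 3 or miR-27a replicate 3 (up to 0.0949). With no filter on low values, the whole-cell calls for Tle3 (adjusted p = 0.0777) and Itch (0.0709) were lost too. Neither of the 2 tested proneural genes was called in either contrast. Of the 12 pathway genes that were higher in whole-cell RNA, 7 held a 7-base seed match only and 5 held none. Of the 5 that were lower, 1 (Poglut1) held an 8-base match, 2 held a 7-base match only and 2 held none. Of the pathway genes tested but not called in whole-cell RNA, 7 held an 8-base match, 10 held a 7-base match only and 22 held none. Of the genes lower in the pulldown, Fbxw7 held an 8-base match and Kat2b a 7-base match only. Of those higher there, Cntn1, Neurl1a and Neurl1b held a 7-base match only and Adam10 held none.

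**Figure D4:**
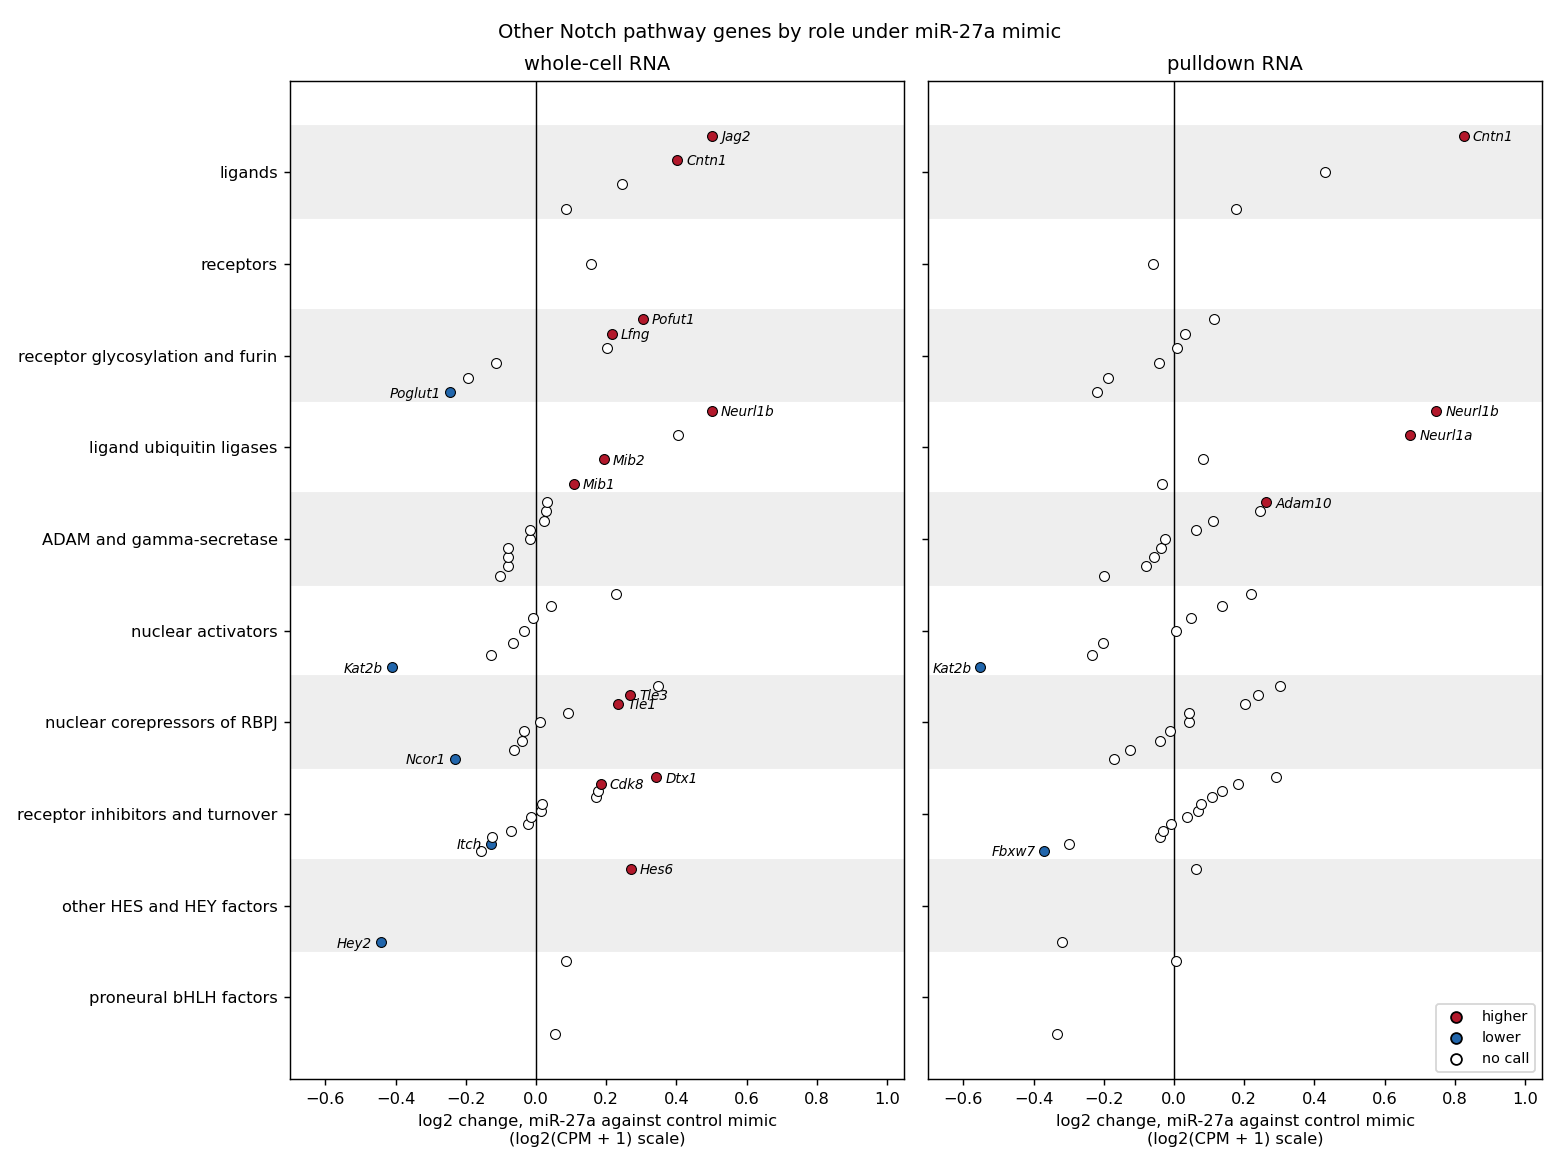
Log2 change of other Notch pathway genes, miR-27a against control mimic (horizontal axis, log2(CPM + 1) scale), by role, in whole-cell (left) and pulldown RNA (right); each point is a gene, filled where the adjusted p is below 0.05 and named. Cntn1 lies at 0.40 in whole-cell and 0.83 in pulldown RNA, and Kat2b at −0.41 and −0.55.

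The genes whose log2 levels followed each member most closely over the 12 libraries were searched among 10180 genes. This likeness is a Pearson correlation over 6 pulldown and 6 whole-cell libraries, and likeness within a kind of RNA was not computed. Dll1 was most like Axin1 (r = 0.996) and Dll3 most like Col3a1 (0.9957). Jag1 was most like Znrf3 (0.9955), Notch1 like Wdfy3 (0.992), Notch2 like Atp2b4 (0.9879) and Notch3 like Grk6 (0.9948). Hes1 was most like Nsg2 (0.9956), with the lineage factor Olig2 among the next (0.9934). Hes5 was most like Cobra1 (0.9866), Hey1 like Zic2 (0.9675) and Rbpj like Senp7 (0.9793). Among the members, Dll1 and Dll3 had r = 0.989, Dll3 and Hes1 0.991, and Hes1 and Hes5 0.769. The difference between pulldown and whole-cell RNA enters every one of these r values. Rbpj, the one member lower in the pulldown, was negatively correlated with all 9 others. Its log2 change under miR-27a was positive, as in most members, at 0.14 in whole-cell and 0.17 in pulldown RNA.

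The reads behind a member in a library ranged from 78 for Hes1 to 4343 for Hes5. The annotation places other genes across 5 members: A930024N18Rik, Gm13568 and 0610009E02Rik, Gm17276 and Gm20421 on the opposite strand of Dll1, Notch1, Notch3 and Hes5, and Gm42820 on the same strand as Notch2. The sources used here do not give the strand setting of the counting, so reads of these pairs may not have been told apart. In the table, 0610009E02Rik reached 1.00 CPM and Gm17276 0.054 CPM at most.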

How the data were processed

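RNA of 12 libraries was sequenced. The authors trimmed reads with skewer, aligned them with HISAT2 to GRCm38, sorted with SAMtools, counted with featureCounts and normalised with edgeR, per the series' design text and the submitters' processing notes; the sources used here do not give versions, the gene annotation or the strand setting. The processing notes also name the build mm8 and do not say what it was used for. The deposited values are log2 CPM of 20540 genes. CPM was obtained by raising 2 to the value and subtracting the listed minimum, which stands for 0 reads. Of the values with low and moderate read counts, 100.0% were then whole reads within 0.01 reads. Values with high read counts were not part of this check.

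Genes that reached 1 CPM in 3 or more libraries entering a fit were tested with limma 3.58.1 (R 4.3.3), with an empirical Bayes trend, on log2(CPM + 1), two-sided, with Benjamini-Hochberg adjustment over all genes tested. The mimic contrasts used 6 libraries each, and all others used 12. The script was run on simulated data in which all genes shared a common spread and no library stood apart. That run does not show how well small changes are found in these libraries. Alternatives changed the pseudocount (0.25 and 5 CPM), filter, scaling, libraries and weights, used limma voom or a replicate block, or left out each library. Replicate numbers come from the labels: same-numbered libraries deviated together in the pulldown mimic contrast (r = 0.135, 0.275 and 0.107), where the block is given beside the result. In each other comparison at least 1 same-numbered pair was at or below 0.1 (r = 0.001, −0.028 and −0.034 between whole-cell groups, −0.055, −0.097 and 0.012 between control groups, 0.015, 0.161 and 0.132 between miR-27a groups). The expected analysis of raw counts was replaced by limma because the values are logged.

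All 10 members are named. Of each other role, up to 3 called genes with the lowest adjusted p are named; Kdm5a and Nrarp were added after their values were seen. One gene of the pathway list is not reported here. Members and lists were chosen with earlier results of these data known. Gene models come from GENCODE M21, and 18013 of 20540 symbols matched.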

Additional observations from a re-analysis of the deposited data

Results flagged for a closer look

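Cntn1, which encodes an adhesion protein described as a Notch ligand, stood out because its mimic effect differed between the 2 kinds of RNA. The pulldown effect minus the whole-cell effect was 0.42 on the log2(CPM + 1) scale (limma, adjusted p = 0.013; up to 0.063 under the alternatives run), and Cntn1 was higher under miR-27a in all 3 libraries of each kind than in any control.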

How the results depend on the processing

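Of 800 values of the members under alternatives, 719 kept their direction and their side of the threshold, and 27 of 50 results kept both under every alternative. With all 12 libraries in the fit, 1415 genes in place of 3335 were called in whole-cell RNA and 3051 in place of 1781 in pulldown RNA, with 3 members higher in each. With no filter on low values 3 members were higher in whole-cell RNA, and the difference of effects called 73 genes in place of 149. With array weights the pulldown contrast called 5102 genes, with 5 members higher and 2 lower, and the difference 1735, with 2 members lower; the estimation of these weights gave convergence warnings. The replicate block called 2743 genes in pulldown RNA, and Notch2 in whole-cell RNA then had an adjusted p of 0.0556; it changed no other call of a member, and of the other pathway genes Mib1 (0.0596) and Tle3 (0.051) missed the threshold in whole-cell RNA. Median-of-ratios scaling called 53 genes higher and 72 lower in the difference, in place of 47 and 102. Leaving out single libraries gave 969 to 2691 calls and 1 to 3 members higher in the pulldown contrast, 3 to 5 members higher in whole-cell RNA, and 43 to 473 calls with 0 to 2 members lower in the difference. The pulldown count was lowest without pulldown control replicate 3 and highest without pulldown miR-27a replicate 2; the difference was lowest without whole-cell miR-27a replicate 3 and highest without pulldown miR-27a replicate 2. Of the members, directions turned only for values near 0. In the difference these were Dll3 (0.0558 with a pseudocount of 5 CPM, 0.0003 with median-of-ratios scaling), Jag1 (0.0053 with 5 CPM, 0.0044 with library totals, 0.0069 with median of ratios, 0.0278 with array weights), Notch2 (0.0142 with array weights) and Hes1 (0.0323 with 5 CPM, 0.0025 with library totals, 0.0013 with median of ratios). Without single libraries the difference ranged from −0.0499 to 0.1169 for Dll1, −0.0824 to 0.0595 for Dll3, −0.0582 to 0.0452 for Jag1, −0.0849 to 0.1042 for Notch1, −0.1224 to 0.0553 for Notch2, −0.0454 to 0.1249 for Rbpj and −0.0428 to 0.014 for Hes1. Hes5 ranged from −0.1121 to 0.0281 and Notch1 from −0.0337 to 0.1361 in whole-cell RNA, and Notch1 from −0.0067 to 0.152 in pulldown RNA. The cause of these shifts was not tested. With 3 libraries a group, the whole-cell changes of Dll1 and Rbpj did not pass the threshold in the main limma fit (adjusted p = 0.126 and 0.0637). Hes1 rests on as few as 78 reads in a library.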
